A study of Mus musculus with 6 samples.

Results

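The control leukaemia examined here was a mouse acute myeloid leukaemia (AML) driven by MLL-AF9, a fusion oncogene made from the genes known in the mouse as Kmt2a and Mllt3, in cells described as littermate control. All 3 arrays titled as control AML, of 6 arrays in the series, were taken, and the arrays of the other genotype were not used. Per the labels, leukaemia cells were harvested from the bone marrow of recipient mice with end-stage disease, sorted by flow cytometry and extracted for total RNA. The sources used here do not give the sorting markers, the vector that carried the fusion, or the strain, age and sex of the mice. Nothing in the labels tells if the arrays come from separate mice, so the spread between arrays may be technical. One value per gene was kept: array rows with exactly 1 gene symbol in the platform annotation were used, and the row with the highest mean stood for its gene, which gave 30142 genes, 19043 of them protein-coding. The question was which genes these cells carried at a high level, where they stood among all genes, and how closely the 3 arrays resembled each other.

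MLL-AF9 joins the DNA-binding part of the histone methyltransferase MLL to a partner that recruits the transcription elongation machinery and DOT1L, and the resulting leukaemias in mice are known for high HOXA and Meis1 transcripts in cells that resemble committed myeloid progenitors. Normal granulocyte progenitors load their primary granules with myeloperoxidase and serine proteases at the promyelocyte stage. They fill secondary and tertiary granules later with lactoferrin, cathelicidin and gelatinase, and lose the ability to divide as they mature. Monocytes branch off the same progenitors and carry receptors such as CSF1R and CCR2.

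Values are log2 signals as deposited, and they ran from 1.97 to 19.59 over the 3 arrays. A scanner of 16 bits cannot give a log2 value above 16, so the scale was changed in some step not described, and differences are therefore given in log2 units and never as folds. The signal of a probe set also depends on its probes, so the ranks below are ranks of signals and not of RNA amounts. A percentile is the share of all genes with a lower mean signal. As a reference for genes that blood cells are not known to use, 1398 genes for odorant, vomeronasal and trace amine receptors were taken: their median was 3.60 and their 95th percentile, 4.56, is called the reference level. The 23 rows of antigenomic background probes lay between 2.33 and 5.05, with a median of 3.31. Of all genes, 16139 (53.5%) had a mean above the reference level, and 15694 were above it on all 3 arrays. Array medians over all genes were 4.76, 4.77 and 4.78 on control replicates 1, 2 and 3. Across genes, which are not independent replicates, every pair of arrays correlated at 0.999.

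Most of the highest signals came from rows annotated as pseudogenes: of the 302 genes in the top 1%, 212 were pseudogenes, 28 ribosomal RNA genes and 34 protein-coding genes. Clone names, pseudogenes, small RNAs and cytosolic ribosomal protein genes were passed over in choosing the 25 genes named for their signal, which were mostly housekeeping and myeloid genes. Among these 25 were Hspa8, a constitutive chaperone, at 19.13 ± 0.05 (SD, n = 3, as for every ± below), B2m, the light chain of class I MHC, at 18.11 ± 0.10, and Eef1a1, a translation elongation factor, at 18.07 ± 0.03. The structural genes Actb (17.77 ± 0.03), Cfl1 (17.47 ± 0.03) and Tubb5 (17.33 ± 0.02) were there too, as were the mitochondrial genes ND3 (17.98 ± 0.07) and COX1 (16.99 ± 0.09). Myeloid genes stood among these 25 as well: Ly6c2, a surface antigen of monocytes and their progenitors, at 18.65 ± 0.05, the granule genes Elane (17.92 ± 0.07) and Mpo (17.42 ± 0.05), and Serpinb1a, an inhibitor of neutrophil proteases, at 17.28 with an SD under 0.01. Gpx1 and Gsr, which reduce peroxides and glutathione, reached 17.85 ± 0.06 and 17.20 ± 0.05, and the metallothionein Mt1 reached 17.19 ± 0.06. Values of Hspa8, Gapdh, Tuba1c, Tuba1a, Ly6c2 and the histone gene H2ac10 are uncertain as single-gene levels, because near-identical copies can share their probes. Of 41 cytosolic ribosomal protein genes found by symbol, 39 were above the reference level and their median was 12.64.

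Primary granule genes were the lineage list with the highest signals. Of 18 measured members, 17 were above the reference level, against 53.5% of all genes, and 10 lay in the top 5% of signals, against 5% of all genes by construction. Their median level was 13.59 and their median percentile 95.7. Elane, neutrophil elastase, measured 17.99, 17.89 and 17.86 on control replicates 1, 2 and 3. Mpo, myeloperoxidase, which makes hypochlorous acid in the phagosome, measured 17.46, 17.42 and 17.36. Ctsg, the protease cathepsin G, measured 16.33, 16.31 and 16.32. The range over the 3 arrays was at most 0.13 for these genes, and each gene exceeded at least 98.6% of all genes. Prtn3, proteinase 3, measured 15.31, 15.23 and 15.36, and Ms4a3, a membrane protein of granulocyte and monocyte progenitors, measured 14.38, 14.48 and 14.42. Lower on the same scale were Cst7 (10.73 ± 0.06), an inhibitor of cysteine proteases, Prss57 (9.95 ± 0.17), a granule protease, and Ctsc (9.35 ± 0.23), the dipeptidase that activates the granule proteases. Bpi, the bactericidal permeability-increasing protein, was close to the reference level at 4.70 ± 0.02. Igll1, the surrogate light chain gene that early myeloid progenitors can also carry, was the only measured member below it, at 3.43 ± 0.08.

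Because Mpo, Elane, Prtn3 and Ctsg shared these high signals, the 250 bases before their RefSeq starts are shown (build GRCm38.p6, each on the gene's own strand, 5′ to 3′). Elane and Prtn3 lie near each other on chromosome 10. Capitals mark matches, on either strand, to short words for factors of granulocyte progenitors: GGAAGT for ETS factors, AACNG for MYB, TGTGGT for RUNX and TTGCNNAA for C/EBP, where N is any base. No match to one of these words overlapped a match to another in the 4 windows. The windows are chr11:87793534-87793783 (+) for Mpo, chr10:79886062-79886311 (+) for Elane, chr10:79879417-79879666 (+) for Prtn3 and chr14:56102575-56102824 (-) for Ctsg.
Mpo: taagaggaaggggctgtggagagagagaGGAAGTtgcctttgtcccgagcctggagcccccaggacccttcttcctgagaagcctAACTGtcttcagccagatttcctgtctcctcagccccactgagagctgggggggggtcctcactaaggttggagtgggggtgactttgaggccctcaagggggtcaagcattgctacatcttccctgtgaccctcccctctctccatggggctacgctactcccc
Elane: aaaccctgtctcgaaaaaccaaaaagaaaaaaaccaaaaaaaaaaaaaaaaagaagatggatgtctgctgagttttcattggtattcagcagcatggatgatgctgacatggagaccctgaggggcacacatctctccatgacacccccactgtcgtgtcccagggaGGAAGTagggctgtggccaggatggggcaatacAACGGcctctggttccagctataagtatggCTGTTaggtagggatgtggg
Prtn3: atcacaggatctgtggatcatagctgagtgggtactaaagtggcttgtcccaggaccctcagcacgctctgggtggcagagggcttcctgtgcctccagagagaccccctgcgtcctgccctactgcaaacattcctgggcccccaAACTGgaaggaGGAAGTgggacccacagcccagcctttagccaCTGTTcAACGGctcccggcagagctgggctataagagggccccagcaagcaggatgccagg
Ctsg: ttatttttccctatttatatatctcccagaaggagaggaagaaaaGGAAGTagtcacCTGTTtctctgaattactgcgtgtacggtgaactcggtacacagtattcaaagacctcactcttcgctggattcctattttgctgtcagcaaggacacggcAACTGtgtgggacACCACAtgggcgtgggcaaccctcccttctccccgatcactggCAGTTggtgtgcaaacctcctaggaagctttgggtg
Each of these 4 windows held 1 ETS match. MYB matches numbered 1 in Mpo, 2 in Elane, 3 in Prtn3 and 3 in Ctsg, and Ctsg also held 1 RUNX match. None held a C/EBP match. Promoters were on hand for 16 of the primary granule genes, and at least 1 window held the ETS word for 11 of these genes, the MYB word for 15, the RUNX word for 7 and the C/EBP word for 1. Over all 27025 genes with a promoter on hand, counted in the same way, the ETS word occurred for 22.2%, the MYB word for 76.8%, the RUNX word for 15.9% and the C/EBP word for 10.8%. Over all 32851 windows, counted singly, the ETS word occurred in 19.7%, the MYB word in 74.2% and the C/EBP word in 9.56%. Among 4505 genes in the top 25% of signals with a promoter on hand, the ETS word occurred for 30.2%, the MYB word for 76.5%, the RUNX word for 12.1% and the C/EBP word for 8.99%. The GATA word AGATAA, searched in the same way, occurred for 0 of the 16 genes and for 11.4% of all genes. A match is a short run of letters and does not show that a factor binds there.

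Genes of later neutrophil granules were mostly above the reference level but spread over a wide range. Of 30 measured, 29 were above it, beside 53.5% of all genes, and 5 were in the top 5%. Their median level was 9.34 and their median percentile 81.5. The subunits of the phagocyte oxidase ranged from Ncf1 (14.62 ± 0.06) and Cyba (13.15 ± 0.12) to Ncf4 (10.61 ± 0.11) and Cybb (10.56 ± 0.40). S100a8, 1 chain of calprotectin, measured 12.75, 12.71 and 13.82, and its partner S100a9 measured 11.56, 11.44 and 12.35. Control replicate 3 was high for both genes, while replicates 1 and 2 differed by 0.03 and 0.12. Ngp, a secondary granule protein, measured 9.64, 9.33 and 10.63. Camp, the cathelicidin, measured 6.68, 6.47 and 7.27, and Lcn2, the siderophore-binding lipocalin, measured 7.18, 6.67 and 7.40. In all of these genes replicate 3 was the highest array and replicate 2 the lowest. Among the other members, Hp, haptoglobin, averaged 13.71 ± 0.08, Pglyrp1, a peptidoglycan-binding granule protein, 12.29 ± 0.38, Padi4, which citrullinates histones, 8.89 ± 0.02, Olfm4, a granule glycoprotein, 8.77 ± 0.39, and Cd177, a surface protein of neutrophils, 8.10 ± 0.32. Members closer to the reference level included granule and surface genes of mature neutrophils: Ltf, lactoferrin, averaged 5.54 ± 0.20, Mmp9, gelatinase, 5.33 ± 0.24, Retnlg, a resistin-like secreted protein of mature neutrophils, 5.45 ± 0.11, Cxcr2, the receptor that draws mature neutrophils into blood, 5.27 ± 0.08, and Ly6g, a surface antigen of mature neutrophils, 5.37 ± 0.03. Mmp8, the neutrophil collagenase, stood at 7.24 ± 0.38. Values of Stfa1, Stfa2 and Stfa2l1, close copies of the stefin A gene, are uncertain for the same reason as those of Ly6c2.

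Monocyte and macrophage genes were divided. Of 32 measured, 24 (75%) were above the reference level, beside 53.5% of all genes. Their median level was 5.63 and their median percentile 58.8. Csf1r, the receptor for the monocyte growth factor, measured 7.90, 7.96 and 8.27, and Ccr2, a receptor for monocyte chemoattractants, measured 8.23, 8.60 and 8.59. F13a1, the coagulation factor XIII chain made by monocytes, was far higher at 12.80, 13.10 and 13.17. Adgre1, which encodes F4/80, stood at 11.62 ± 0.08 and Cd68, a lysosomal glycoprotein, at 10.09 ± 0.39, with replicate 3 the highest array for both. The cathepsin gene Ctsb reached 14.91 ± 0.16 and Mpeg1, a pore-forming protein of phagocytes, measured 8.84, 8.81 and 9.34. Several markers of resident macrophages were close to the reference level or below it. Among these, C1qb averaged 5.10 ± 0.26, C1qa 4.68 ± 0.05 and Mrc1 4.61 ± 0.02, while C1qc (4.46 ± 0.13), Mertk (4.48 ± 0.03), Ms4a7 (3.84 ± 0.10), Timd4 (3.81 ± 0.06) and Vsig4 (3.45 ± 0.02) were below it. Other macrophage genes of the list stood higher: Apoe averaged 6.75, Hmox1 5.80, Lpl 5.56 and Gpnmb 5.37. Cx3cr1, a receptor of patrolling monocytes, averaged 5.47 ± 0.10.

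Genes of basophils, mast cells and eosinophils were above the reference level about as often as genes at large, and single members differed widely. Of 18 mast cell and basophil genes, 8 were above it, and of 10 eosinophil genes, 6 were, beside 53.5% of all genes. Cpa3, a carboxypeptidase of mast cells and their progenitors, measured 12.75, 12.88 and 13.07. Hdc, which makes histamine, measured 10.17, 10.18 and 10.30, and Mcpt8, a basophil protease, measured 9.87, 9.88 and 10.37. For all of these genes replicate 3 was the highest array, by 0.12 to 0.50 over the next. Fcer1a, the IgE-binding chain, was at 3.50 ± 0.06, and the tryptases and chymases Tpsb2 (3.50 ± 0.04), Tpsab1 (3.25 ± 0.05), Cma1 (3.64 ± 0.04) and Mcpt4 (3.99 ± 0.10) were also below the reference level. Prg2, the eosinophil major basic protein, measured 10.37, 10.32 and 10.20, and Siglecf, a sialic acid-binding receptor of eosinophils, measured 11.18, 10.93 and 10.76. Epx, eosinophil peroxidase, stood at 7.17 ± 0.04. Il5ra, the interleukin-5 receptor chain, and Ccr3, the eotaxin receptor, were below the reference level at 3.80 ± 0.02 and 3.55 ± 0.07.

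Markers of lymphocytes, megakaryocytes and stroma were mostly below the reference level. In a bulk sample, fewer cells of a type and less RNA per cell cannot be told apart. Of 22 B cell genes, 4 were above the reference level, of 25 T and NK cell genes 3, of 16 megakaryocyte genes 5 and of 24 stromal and endothelial genes 4. Dendritic cell genes were above it for 10 of 20 (50%), near the 53.5% of all genes. Without replicate 3, 3 megakaryocyte and 2 B cell genes were above it. The B cell regulators Pax5 (3.93 ± 0.08) and Ebf1 (4.34 ± 0.27), the CD3 chain Cd3e (3.81 ± 0.03), the platelet chemokine Pf4 (3.82 ± 0.14), the endothelial cadherin Cdh5 (3.99 ± 0.02) and the collagen Col1a1 (4.43 ± 0.02) were all below it. Exceptions within these lists included Cd79b, a signalling chain of the B cell receptor, at 9.13 ± 0.07. Nkg7, a granule membrane protein also counted with the primary granule genes, stood at 11.55 ± 0.11. Pecam1, an adhesion molecule of endothelium that leukocytes also carry, was at 10.35 ± 0.16, and Pdgfrb, a growth factor receptor of mesenchymal cells, at 8.19 ± 0.10. Nfe2, a factor of megakaryocytes also counted with the myeloid factors, measured 9.05, 8.89 and 9.07. Bank1 of the B cell list (7.39), Bcl11b of the T and NK cell list (5.98) and Itgb3 of the megakaryocyte list (5.85) were further exceptions. Cst3, cystatin C, led the dendritic cell list at 13.58 ± 0.11, while Zbtb46, Xcr1 and Clec9a, which mark classical dendritic cells, lay between 3.58 and 3.74. Of 22 erythroid genes, 13 (59.1%) were above the reference level, near the 53.5% of all genes. Their median was 4.65. Tfrc, the transferrin receptor that dividing cells also need, was the highest at 10.89 ± 0.07. Alas2, the first enzyme of haem synthesis in red cell precursors, measured 7.38, 7.23 and 6.67, and Slc4a1, the anion exchanger of the red cell membrane, measured 6.24, 6.20 and 5.33. Replicate 3 was the low array for both. Klf1, the erythroid master regulator, and Epor, the erythropoietin receptor, were below the reference level at 4.12 ± 0.14 and 4.34 ± 0.02. The 99th percentile of the sensory receptor genes, 5.55, served as a stricter reference. Above it were 5 erythroid, 2 megakaryocyte, 2 B cell and 2 stromal genes. Fewer of all genes passed this stricter reference too, so the 53.5% is not the share to set beside these counts. Haemoglobin genes are not analysed here.

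**Figure D1:**
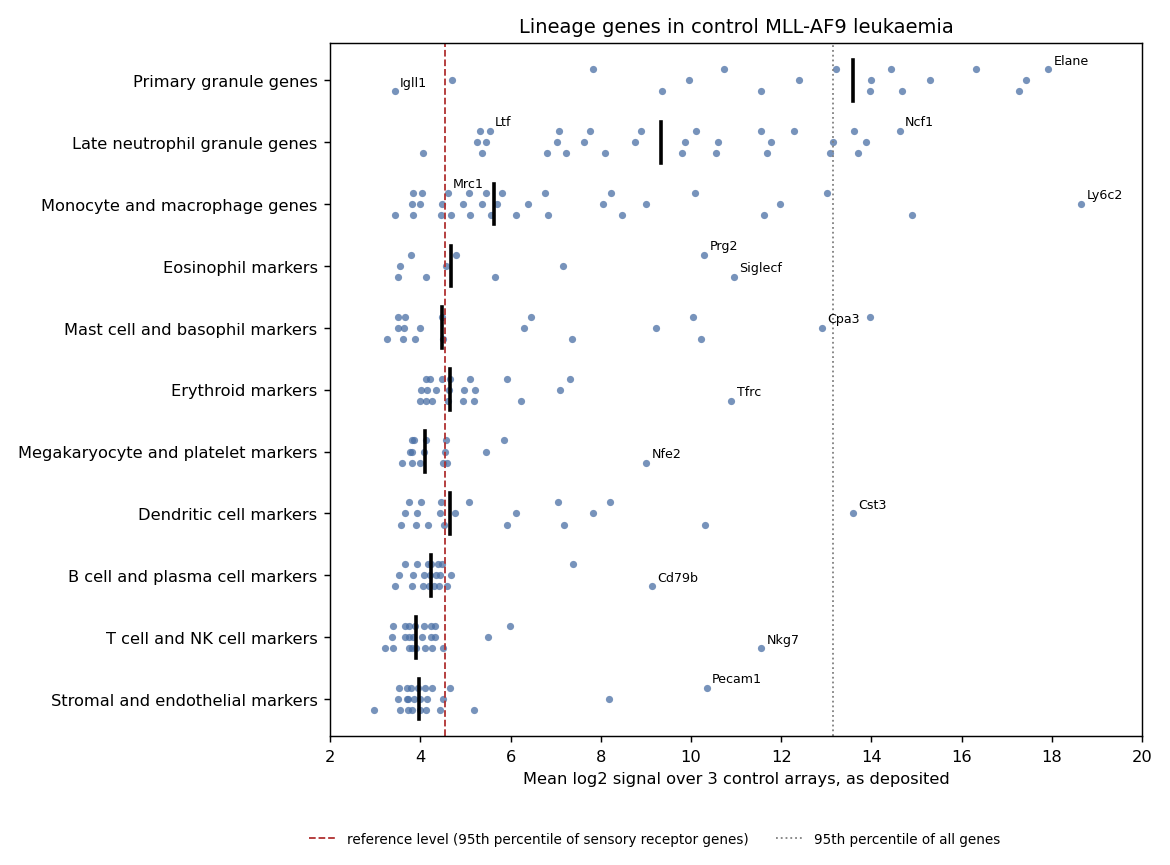
Mean log2 signal over the 3 control arrays (horizontal axis, as deposited) for every measured member of 11 lineage lists; each point is a gene, the black bar is the list's median, the dashed line is the reference level (4.56) and the dotted line the 95th percentile of all genes (13.14). Primary granule genes have the rightmost median (13.59). The medians of the mast cell and basophil, B cell, T cell, megakaryocyte and stromal lists lie left of the reference level.

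Transcription factors of the myeloid lineage were widely present. Of 35 measured, 32 were above the reference level, beside 53.5% of all genes. Their median level was 9.25 and their median percentile 81.2. Among the C/EBP factors, which drive granulocyte development in sequence, Cebpe measured 9.84, 9.31 and 9.43, Cebpa 9.33, 9.18 and 9.22, and Cebpg, Cebpd and Cebpb averaged 8.76 ± 0.01, 8.43 ± 0.05 and 7.81 ± 0.11. Gfi1, a repressor needed for neutrophil formation, stood at 10.68 ± 0.12. Irf8, which directs progenitors to monocytes and dendritic cells, measured 7.61, 7.75 and 8.16, highest on replicate 3. The core-binding factor genes Runx1 and Cbfb averaged 10.09 ± 0.11 and 11.19 ± 0.15. Fli1 and Etv6, ETS factors of blood stem and progenitor cells, reached 13.90 ± 0.08 and 13.07 ± 0.06, and Ikzf2, a zinc finger factor related to Ikaros, reached 13.41 ± 0.15. The 3 members below the reference level were Irf4 (3.93 ± 0.05), a factor of plasma cells and some dendritic cells, Id3 (4.18 ± 0.03), an inhibitor of E proteins, and Maf (4.45 ± 0.02), a factor of macrophages.

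HOX genes, which encode homeodomain factors that set the self-renewal programme of MLL-rearranged leukaemia, were detected almost exclusively from the HOXA cluster. Of 8 HOXA genes measured, 7 were above the reference level, against 1 of 9 HOXB, 0 of 9 HOXC and 0 of 7 HOXD genes. The share over all genes was 53.5%. Hoxa6 measured 12.84, 12.67 and 12.94, and Hoxa5 measured 12.22, 12.09 and 12.41. These genes were the highest of the family, above 94.3% and 93.0% of all genes, and replicate 3 was the highest array for both. Hoxa10 followed at 8.38, 8.45 and 8.25 and Hoxa3 at 8.23, 8.33 and 8.17, and these neighbours in the order overlapped across arrays. Hoxa2 measured 6.92, 6.94 and 6.95, Hoxa4 5.51, 5.74 and 5.59, and Hoxa11, at 4.77, 4.76 and 4.55, lay on both sides of the reference level. Hoxa13, at the posterior end of the cluster, was below it at 3.78 ± 0.08. Hoxb7 was the HOXB gene above the level, at 5.16, 5.05 and 5.05, and with the stricter reference of 5.55 no HOXB gene was above it. Hoxa11 lay within the spread of the background probes, which reached 5.05, and Hoxb7 at the edge of that spread. Hoxb3 came next at 4.51 ± 0.04, and the HOXC and HOXD genes reached at most 4.40 ± 0.03 (Hoxc9) and 4.36 ± 0.08 (Hoxd9). Hoxa9 and Hoxa7 are not analysed here.

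**Figure D2:**
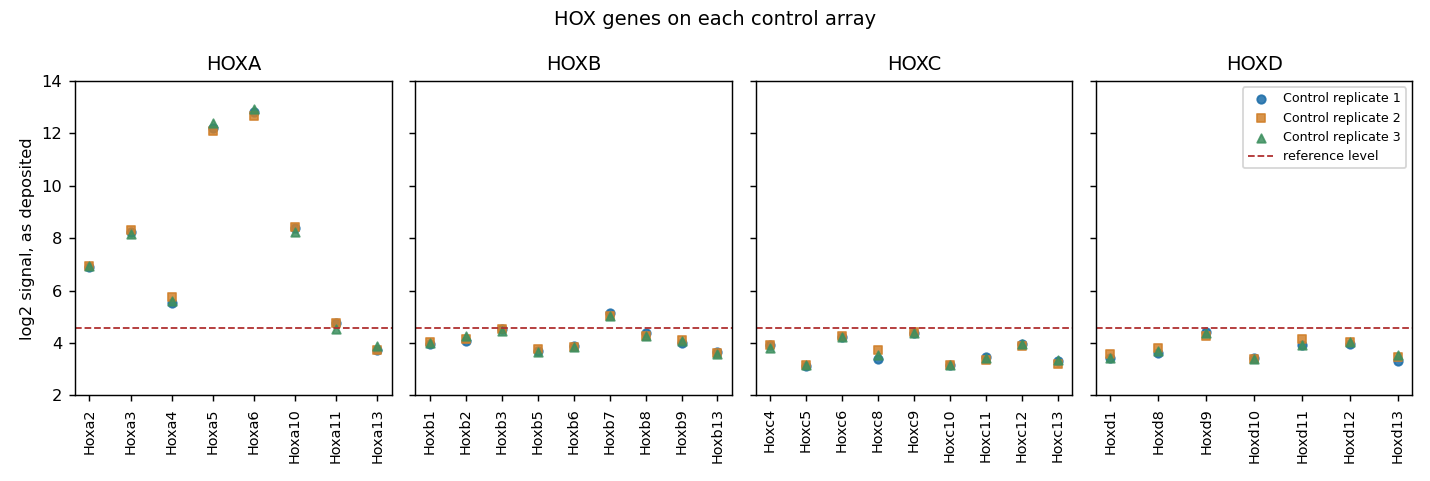
Log2 signal of every measured HOX gene (vertical axis, as deposited) on each of the 3 control arrays, 1 panel per cluster with genes in paralogue order; the dashed line is the reference level (4.56). Hoxa5 and Hoxa6 stand above 12 on all 3 arrays, and all HOXB, HOXC and HOXD genes other than Hoxb7 lie below the line.

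Other genes reported as targets or partners of MLL fusions were high with few exceptions. Of 19 measured, 17 were above the reference level, beside 53.5% of all genes. In the top 5% were 4, and the median percentile was 83.4. Cdk6, a cell cycle kinase, measured 16.45, 16.42 and 16.39, and Myb, a factor of proliferating progenitors, measured 16.20, 16.10 and 16.15. Eya1, a transcriptional coactivator and phosphatase, stood at 14.93 ± 0.06. Meis1, the homeodomain partner of HOXA proteins, measured 11.34, 11.41 and 11.36, and the further partner Pbx3 measured 8.10, 8.29 and 8.31. Mef2c, a MADS-box factor, measured 9.49, 9.79 and 10.15, a wider spread than that of the other genes named here, with replicate 3 high. Myc averaged 12.71 ± 0.16 and Jmjd1c, a demethylase-like cofactor, 13.36 ± 0.05. Flt3, a receptor tyrosine kinase of early progenitors, and Mecom, a factor of long-term stem cells, were below the reference level at 4.46 ± 0.06 and 4.34 ± 0.06.

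Genes of stem and progenitor cells were above the reference level about as often as genes at large. Of 28 measured, 14 were above the reference level, beside 53.5% of all genes, and their median percentile was 46.5. Kit, the stem cell factor receptor, measured 11.17, 11.02 and 11.18, and Cd48, a surface protein of committed progenitors, measured 10.68, 10.71 and 10.75. Cd34, a sialomucin of progenitors, measured 9.41, 9.68 and 9.68. Lyl1 and Lmo2, parts of a progenitor transcription factor complex, reached 14.34 ± 0.07 and 12.35 ± 0.10, and Angpt1, the angiopoietin that stem cells and progenitors secrete, reached 11.72 ± 0.12. Members used to mark long-term stem cells lay on both sides of the reference level. Adgrg1, an adhesion receptor of stem cells, stood at 10.31 ± 0.18 and Gata2, a factor of stem cells and progenitors, at 7.36 ± 0.10. Ctnnal1, alpha-catulin, at 5.04 ± 0.05, was above the level but within the spread of the background probes, which reached 5.05. Below the level, Procr stood at 4.51 ± 0.08, Hlf at 4.48 ± 0.04, Slamf1 at 4.08 ± 0.17, Fgd5 at 3.87 ± 0.02 and Tek, the receptor for Angpt1, at 3.74 ± 0.06. The developmental factor Mycn and the endothelial factor Sox17 were at 3.38 ± 0.05 and 3.38 ± 0.03.

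MicroRNAs are short RNAs, cut from longer hairpin transcripts, that lower the output of messages they pair with. What the rows for microRNA genes capture of hairpin, host or mature RNA was not tested, so levels here are those of the gene row. Of 10 blood microRNA genes measured, 5 were above the reference level, near the 53.5% of all genes. The mature 3′ arms of the 4 that stood clear of it are shown with their seed, bases 2 to 8, in capitals (RefSeq, 5′ to 3′), because the seed sets which transcripts a microRNA can pair with; no seed is shared among them.
mmu-miR-142a-3p: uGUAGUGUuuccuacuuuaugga
mmu-miR-27a-3p: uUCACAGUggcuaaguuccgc
mmu-miR-23a-3p: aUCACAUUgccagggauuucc
mmu-miR-24-3p: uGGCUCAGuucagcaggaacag
Mir142, a gene of blood cells on chromosome 11, measured 10.43, 10.33 and 10.13, lowest on replicate 3. Its neighbours in the order were Mir27a at 7.62, 8.05 and 8.29 and Mir23a at 7.01, 7.43 and 7.51, which lie side by side on chromosome 8 with Mir24-2 (7.08 ± 0.27). Replicate 1 was the low array for both Mir27a and Mir23a. Mir155, a microRNA of activated immune cells, stood at the reference level with 4.34, 4.72 and 4.63. Mir150, a microRNA of mature lymphocytes, and Mir146, which dampens innate signalling, were below it at 2.93 ± 0.08 and 3.10 ± 0.17.

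Receptors for myeloid growth factors and cytokines differed widely. Of 33 measured, 23 (69.7%) were above the reference level, beside 53.5% of all genes. Their median level was 8.04. Ifngr1, a chain of the interferon gamma receptor, was the highest at 15.66 ± 0.02. Csf2ra, the GM-CSF receptor chain, measured 13.97, 13.74 and 14.09, and Csf3r, the G-CSF receptor, measured 11.56, 11.45 and 11.64. Il3ra, which binds interleukin-3, measured 8.97, 8.88 and 8.93. For Csf2ra and Csf3r replicate 2 was lowest and replicate 3 highest. The interferon receptor chains Ifnar2 and Ifnar1 averaged 12.67 ± 0.13 and 10.88 ± 0.06. Il7r (4.22 ± 0.25) and Il2ra (3.62 ± 0.07), receptor chains of lymphocytes, were below the reference level, as were Lifr (3.61 ± 0.04) and Osmr (3.63 ± 0.01), receptors of the interleukin-6 family.

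Of 24 chemokine and other G protein-coupled receptors, 12 were above the reference level, near the 53.5% of all genes. Cxcr4, which holds progenitors in the marrow by binding CXCL12, stood far above the others at 14.92, 14.90 and 14.89. Ccr1, a receptor of myeloid cells, came next at 9.76, 9.78 and 9.94. Ccr2 followed at 8.47 ± 0.21 and the sphingosine phosphate receptor S1pr4 at 7.04, 6.95 and 7.01. These 4 genes did not overlap across arrays. The lymphocyte receptors Cxcr5 (3.39 ± 0.11), Ccr4 (3.43 ± 0.02), Ccr6 (3.48 ± 0.01) and Cxcr3 (4.26 ± 0.09) were below the reference level. S1pr1, which guides cells out of tissue into blood, was at 3.63 ± 0.10.

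Innate receptors and their adaptors were led by the Fc receptor system. Of 30 measured, 22 were above the reference level, beside 53.5% of all genes. In the top 5% were 3: the adaptors Fcer1g (14.74 ± 0.15) and Tyrobp (14.19 ± 0.18), and Fcgr3, a low-affinity IgG receptor, at 14.21 ± 0.01. The inhibitory IgG receptor Fcgr2b reached 12.23 ± 0.11, whereas Fcgr1, the high-affinity receptor, was below the reference level at 4.03 ± 0.07. Tlr4, the endotoxin receptor, measured 8.88, 8.81 and 8.78, and its co-receptor Ly96 measured 8.29, 8.07 and 8.55. Cd14, which loads that complex, was lower at 6.35, 6.17 and 6.65. The arrays did not keep 1 order over these genes. Clec7a, the receptor for fungal glucan, stood at 10.35 ± 0.12, and Tlr3 (3.65 ± 0.12), Tlr5 (4.30 ± 0.14) and Tlr12 (3.83 ± 0.07) were below the reference level.

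Of 39 integrin and other adhesion genes measured, 29 were above the reference level, beside 53.5% of all genes. Cd47, the signal that restrains phagocytosis, reached 16.45 ± 0.03. Itgam and Itgb2, which form Mac-1, measured 13.66, 13.50 and 13.66 and 13.04, 12.76 and 13.02, with replicate 2 lowest for both. Itga4 and Itgb1, which form VLA-4 and bind marrow stroma, averaged 12.25 ± 0.07 and 13.11 ± 0.12. Vcam1, the stromal ligand of VLA-4 that some myeloid cells also carry, was itself at 10.72 ± 0.05. Cd33, a myeloid sialic acid-binding receptor, averaged 12.26 ± 0.35. Other integrin chains ranged widely: Itgav, a chain of vitronectin receptors, averaged 10.12 ± 0.04, Itga6, a laminin receptor chain, 8.88 ± 0.11, Itgb5, a partner of Itgav, 6.80 ± 0.10, and the leukocyte chains Itgax and Itgad 4.76 ± 0.02 and 4.70 ± 0.03. The leukocyte chain Itgae (3.93 ± 0.03) and the epithelial chains Itgb4 (4.43 ± 0.03), Itga3 (3.96 ± 0.03) and Itgb6 (3.61 ± 0.05) were below the reference level.

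Cell cycle genes were present without exception among those measured. All 42 S phase genes and all 44 G2/M genes were above the reference level, beside 53.5% of all genes. Their median percentiles were 89.0 and 91.9, and 8 and 11 of them lay in the top 5%. Mki67, the proliferation antigen Ki-67, measured 16.46, 16.42 and 16.40. Top2a, the topoisomerase that untangles replicated DNA, measured 14.71, 14.75 and 14.65. The replicative helicase genes Mcm2 to Mcm6 averaged from 13.22 ± 0.07 (Mcm2) to 14.54 ± 0.12 (Mcm6), and the ribonucleotide reductase gene Rrm1 reached 14.85 ± 0.09. Cdk1 measured 11.09, 11.16 and 10.99, and its cyclin gene Ccnb2 measured 14.14, 14.05 and 13.38. Replicate 3 was low for Ccnb2 by 0.67 from the nearer of the other arrays, beyond the gap of 0.09 between those. Among G1 regulators Cdk4 averaged 13.54 ± 0.07 and Cdk2 12.76 ± 0.10, whereas the D cyclin genes Ccnd2 and Ccnd3 averaged 7.84 ± 0.05 and 7.18 ± 0.10.

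The lists of cyclin-dependent kinase inhibitors and of cell death genes had lower medians. Other brakes on the cycle stood high, with Rb1, Rbl1 and Rbl2 at 12.01, 13.04 and 11.52. Of 8 genes for inhibitors of cyclin-dependent kinases, 7 were above the reference level, beside 53.5% of all genes. The median of the 8 was 5.92. Cdkn3, a phosphatase that rises with mitosis, was the highest at 12.03 ± 0.09. Cdkn1a, the p53 target p21, measured 8.87, 8.51 and 9.14, and Cdkn1b, p27, measured 8.63, 8.63 and 8.68. Cdkn2a, which encodes p16 and p19ARF, stood at 5.30, 5.35 and 5.36, and Cdkn2b, p15, was below the reference level at 4.44 ± 0.01. Of 18 p53 pathway genes 16 were above it, with the p53 antagonists Mdm4 and Mdm2 at 12.38 ± 0.04 and 11.10 ± 0.07. In the BCL2 family 16 of 17 were above it, and Mcl1, a short-lived survival factor, was highest at 12.98, 13.04 and 13.06. Bak1, an effector of mitochondrial death, averaged 11.15 ± 0.08, and the survival genes Bcl2 and Bcl2l1 averaged 8.43 ± 0.17 and 7.40 ± 0.14. With the 99th percentile of the sensory receptor genes, 5.55, as the reference, 9 of the 17 BCL2 family genes were above it. The share of all genes above 5.55 was also lower than 53.5%, so this count is not to be read against 53.5%.

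Of 17 genes of DNA methylation and its regulation, 16 were above the reference level, beside 53.5% of all genes. Their median percentile was 83.4. The 2 members in the top 5% were Dnmt1 and Idh1, an isocitrate dehydrogenase that supplies the cosubstrate of TET enzymes, at 13.15 ± 0.19. Dnmt1, which copies methylation after replication, measured 14.76, 14.86 and 14.78, and Uhrf1, which brings it to hemimethylated DNA, measured 11.37, 11.55 and 11.33. Replicate 2 was highest for both. The de novo enzymes were lower: Dnmt3a measured 8.16, 8.24 and 8.10 and Dnmt3b 6.76, 6.83 and 6.78, while their cofactor Dnmt3l was below the reference level at 3.96, 4.06 and 3.98. Among the TET dioxygenases, which oxidise methylcytosine, Tet2 measured 11.27, 11.41 and 11.48, Tet3 9.73, 9.58 and 9.75, and Tet1 5.07, 4.95 and 4.94. Within the DNMT genes, and within the TET genes, no levels overlapped across arrays.

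Polycomb and MLL complex genes were almost all above the reference level, at 27 of 28 and 35 of 38, beside 53.5% of all genes. The subunits of PRC2, which methylates H3 lysine 27, averaged 12.27 ± 0.11 (Suz12), 12.13 ± 0.04 (Ezh2), 10.86 ± 0.04 (Eed) and 10.66 ± 0.07 (Ezh1). In PRC1, which ubiquitinates H2A, Rnf2 averaged 11.02 ± 0.04, Bmi1 9.68 ± 0.13 and Ring1 6.15 ± 0.08. Kmt2a, the MLL gene itself, measured 10.83, 10.71 and 10.78, and Mllt3, the AF9 gene, measured 5.43, 5.46 and 5.46. These rows are those of the mouse genes, and the fusion transcript itself is not analysed here. Among the fusion's cofactors, Psip1, the chromatin tether LEDGF, averaged 10.58 ± 0.09, and Aff4, a scaffold of the super elongation complex, 10.06 ± 0.07. Dot1l, the H3 lysine 79 methyltransferase, averaged 9.57 ± 0.10. These stood above the 75th percentile of all genes, 8.15, and Men1, menin, at 7.72 ± 0.10 stood below it. Kmt2e reached 14.07 ± 0.04 and was the only member of its list in the top 5%.

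Other chromatin regulators were of similar standing. Of 53 histone demethylase, acetylation and methylation genes, 52 were above the reference level, beside 53.5% of all genes. The histone deacetylase gene Hdac1 was highest at 14.83, 14.77 and 14.71. Hdac1 had several rows, whose mean was 13.49. Kdm1a, the demethylase LSD1, measured 8.73, 8.68 and 8.58, and Kdm4c, a demethylase of H3 lysine 9, measured 9.97, 9.84 and 9.64. The acetyltransferase genes Ep300 and Crebbp averaged 12.90 ± 0.12 and 12.79 ± 0.05. Of 36 SWI/SNF, cohesin and CTCF genes, 32 were above the level and 6 lay in the top 5%. Cohesin subunits were prominent, with Rad21 at 14.41, 14.35 and 14.13, Stag2 at 14.04, 14.02 and 13.89 and Smc3 at 13.83, 13.88 and 13.61, each lowest on replicate 3. The 4 members below the reference level were the meiotic cohesin genes Rec8, Smc1b and Rad21l, between 3.53 and 3.94, and Smarcd3 (4.35 ± 0.07), a SWI/SNF subunit of muscle.

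Genes of growth were high and those of antigen presentation were divided between the MHC classes. All 23 ribosome biogenesis genes were above the reference level, with nucleophosmin (Npm1) at 16.20 ± 0.04 and nucleolin (Ncl) at 15.18 ± 0.05, and so were 21 of 23 glycolysis genes, with Pgk1 at 15.77 ± 0.12 and Pkm at 13.78 ± 0.04. All 12 class I MHC genes were above it. H2-K1 measured 12.68, 12.63 and 12.86 and H2-D1 11.20, 11.15 and 11.50, highest on replicate 3, and values of these close relatives are uncertain. In class II, 7 of 11 (63.6%) were above it, beside 53.5% of all genes. H2-DMb1 and H2-DMa, which load peptide, measured 9.67, 9.55 and 9.69 and 7.52, 7.45 and 7.54, and H2-Ab1 averaged 7.44 ± 0.03. Ciita, the class II master regulator, H2-Aa and H2-Eb1 were below the reference level at 3.89 ± 0.04, 4.13 ± 0.04 and 3.93 ± 0.06. Interferon response genes were above it for 18 of 24, with Oas1a at 10.29 ± 0.08 and with Mx1 (4.28 ± 0.01) and Isg15 (4.42 ± 0.04) below it. Xist, the RNA of the inactive X chromosome, measured 16.66, 16.71 and 16.79, and the Y-linked genes Eif2s3y, Uty and Kdm5d were below the reference level at 4.53 ± 0.01, 4.18 ± 0.03 and 3.96 ± 0.06.

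**Figure D3:**
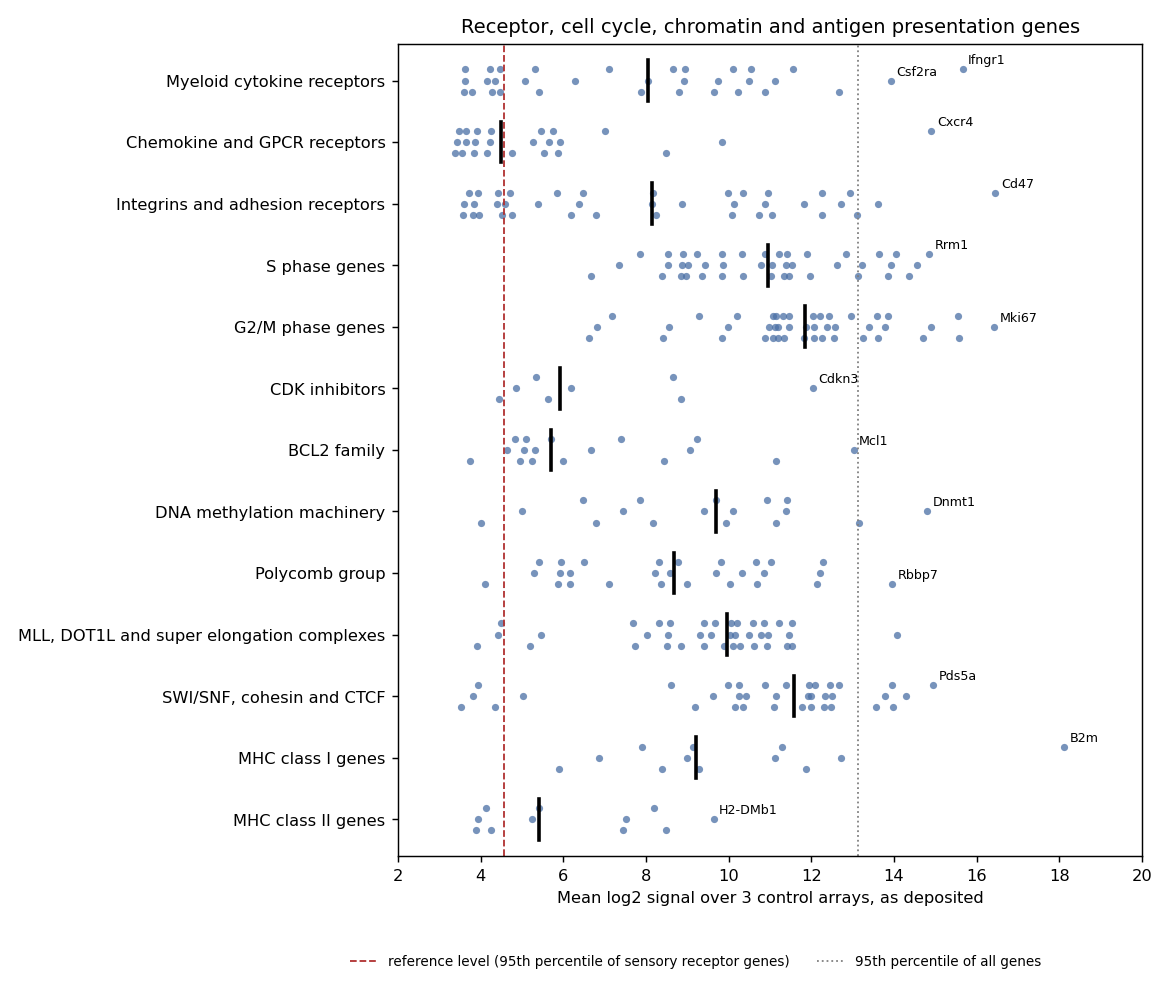
Mean log2 signal over the 3 control arrays (horizontal axis, as deposited) for every measured member of 13 lists of receptor, cell cycle, chromatin and MHC genes; each point is a gene, the black bar is the list's median, the dashed line is the reference level (4.56) and the dotted line the 95th percentile of all genes (13.14). All points of the S phase and G2/M lists lie right of the dashed line, with medians of 10.95 and 11.84.

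The arrays were close to each other for most genes. Over the 16139 genes above the reference level the median SD was 0.08, and 95% of them had an SD under 0.23. The difference between the highest and the lowest array was over 0.5 for 494 of these genes, or 3.06%, and over 1 for 19. The median SD stayed between 0.07 and 0.10 from the dimmest to the brightest genes above the level. Some lists varied more: the median SD of members above the reference level was 0.27 for the 5 microRNA genes, 3 of which had a range over 0.5, 0.23 for immediate early and heat shock genes, 0.20 for late neutrophil genes, 0.16 for monocyte and macrophage genes and 0.14 for erythroid markers, against 0.06 for primary granule genes. A range over 0.5 was seen in 12 of 29 late neutrophil genes and in 9 of 20 immediate early and heat shock genes. It was also seen in 2 of 17 primary granule genes.

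Which array was highest differed between lists. Over all genes above the reference level, replicates 1, 2 and 3 were highest for 34.9%, 30.1% and 35% of genes, and replicate 3 was lowest for 34.5%. In the G2/M list replicate 3 was highest for 0 of 44 genes and lowest for 38. In the S phase list replicate 2 was highest for 31 of 42 genes and replicate 1 lowest for 26. Erythroid markers were also low on replicate 3, which was highest for 0 of 13 and lowest for 12. Replicate 3 was highest for 20 of 29 late neutrophil genes, 16 of 24 monocyte and macrophage genes, 16 of 22 innate receptor genes, 20 of 32 myeloid transcription factor genes and 9 of 12 class I MHC genes. Interferon response genes were highest on replicate 1 for 13 of 18. Averaged over all measured members, the late neutrophil list stood at 9.32, 9.15 and 9.60 on replicates 1, 2 and 3, the monocyte and macrophage list at 6.95, 6.97 and 7.11, the G2/M list at 11.82, 11.79 and 11.64, and the whole erythroid list at 5.26, 5.31 and 5.04. The immediate early genes Fos and Jun, of a kind that cells can also raise during handling, rose from replicate 1 over 2 to 3. Fos measured 11.52, 11.87 and 12.37 and Jun 8.69, 9.27 and 10.02. The immediate early and heat shock list averaged 10.06, 10.22 and 10.40, with replicate 1 lowest for 12 of 20 genes and replicate 3 highest for 11. The part of erythroid, monocyte or handling-related transcripts in the other differences between arrays was not tested.

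**Figure D4:**
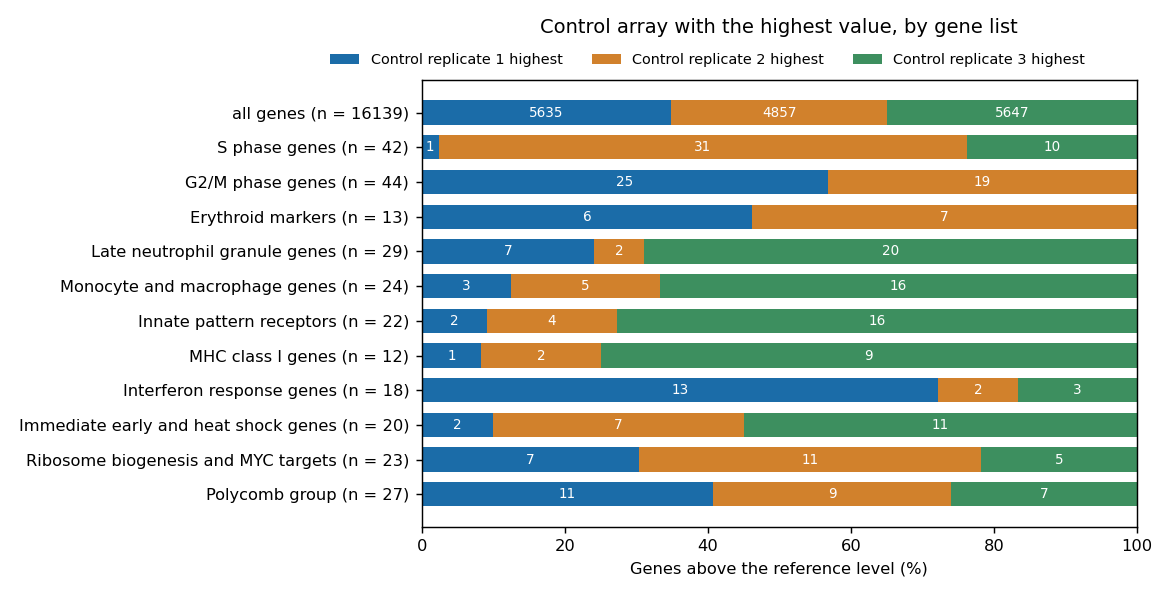
Share of genes above the reference level (horizontal axis, %) for which each control array had the highest of the 3 values, for all genes and for 11 lists; numbers in the bars count genes and n is the number of genes above the level. Replicate 3 has no segment in the G2/M and erythroid bars and the longest segment in the late neutrophil, monocyte, innate receptor and class I MHC bars.

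Replicate 3 also stood at an extreme for the named genes with the widest range over the arrays. Of the 20 named genes with the widest range among genes above the reference level, replicate 3 was highest for 17 and lowest for 3, and replicate 2 was lowest for 12. Lilrb4a, an inhibitory receptor of myeloid cells, measured 9.03, 8.84 and 10.38, and its neighbour Lilr4b measured 7.13, 6.98 and 8.25. Values of this pair of close copies are uncertain, as are those of the lysozyme genes Lyz2 (12.99, 12.74 and 13.89) and Lyz1 (7.67, 7.44 and 8.35). Replicates 1 and 2 differed by at most 0.25 for these 4 genes. Ccl3, an inflammatory chemokine, measured 9.97, 10.39 and 11.32, and Fn1, fibronectin, measured 8.24, 8.09 and 9.15. Ighm, the heavy chain of IgM, measured 7.92, 7.64 and 8.54. Dusp1, an early phosphatase that damps kinase signalling, measured 13.16, 13.38 and 14.18, and Fosb, a partner of JUN, measured 11.14, 11.59 and 12.27, so replicate 1 was the lowest array for both. The 3 genes lowest on replicate 3 were Car2, a carbonic anhydrase of red cell precursors, at 7.58, 7.90 and 6.46, Slc4a1, and Rsad2, the antiviral protein viperin, at 7.15, 6.97 and 6.06.

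**Figure D5:**
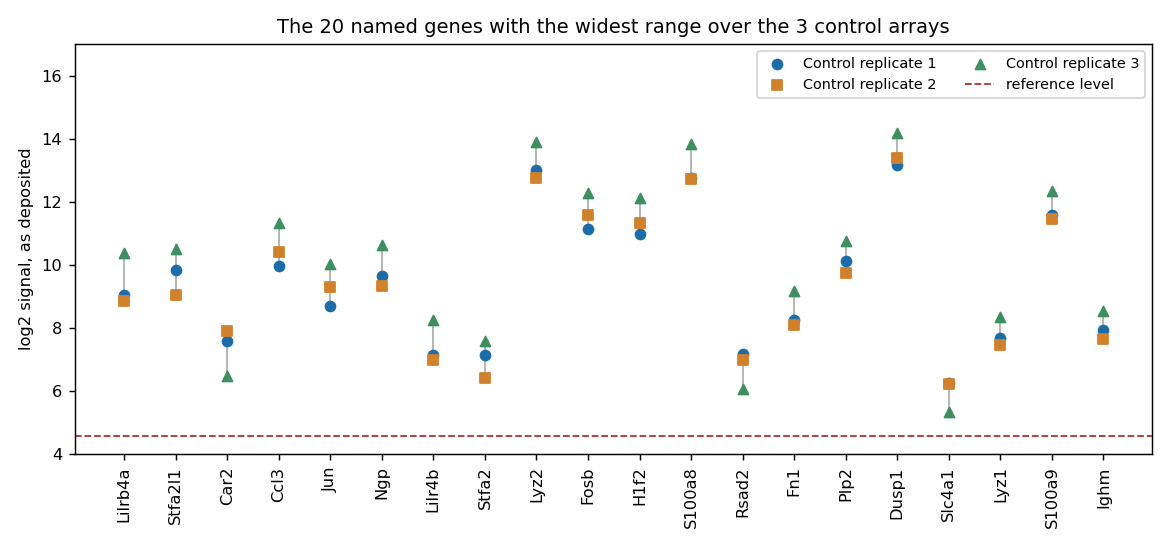
Log2 signal (vertical axis, as deposited) of the 20 named genes with the widest range over the 3 control arrays, with 1 symbol per array and a grey line over the range; the dashed line is the reference level (4.56). Replicate 3 is the highest point for 17 genes and the lowest for Car2, Rsad2 and Slc4a1.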

How the data were processed

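RNA of 3 control arrays was measured on an Affymetrix mouse transcriptome array. The deposited table holds log2 values that the authors made with RMA, as the submitters' processing notes name it, without a version. The table has 72688 rows: 6732 array controls, 30604 rows with exactly 1 gene symbol in the platform annotation, 2146 with several and 33206 with none. Rows with several symbols or none were left out. For 827 rows the symbol was updated through the gene identifier, and biotypes came from a RefSeq table of assembly GRCm38.p6, which lacked 305 genes. The 30142 genes hold 29821 distinct sets of values, since some rows are identical.

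Levels, SDs, percentiles and counts were computed in Python 3.11.15 with pandas 2.3.3 and numpy 2.4.6, and the scripts were tested on simulated data. Figures were drawn with matplotlib 3.10.9. No groups were compared, so there is no p-value, and with 3 arrays the precision is limited by their number. The genes described, and 42 lists of genes, were chosen with earlier results of these data known, and the microRNA list was added after the table was opened. Of 972 distinct listed genes, 870 were measured. The text may name any list member, and names the defining ones with values, the 25 genes with the highest mean and the 20 with the widest range among genes above the reference level, passing over clone names, pseudogenes, small RNAs and, for the highest signals, cytosolic ribosomal protein genes. Promoters and microRNA sequences are RefSeq's; motif words were chosen with the granule gene levels known. Alternatives changed the row per gene, the reference level, the normalization, the centring, the counting of identical rows and the arrays used.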

Additional observations from a re-analysis of the deposited data

Results flagged for a closer look

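Rows that the description above does not use also carried signal. Of 35352 transcript rows with no symbol or with several, 13968 (39.5%) had a control mean above the reference level, beside 16385 of 30604 rows (53.5%) with exactly 1 symbol. What these rows measure is not analysed here. Groups of 3 arrays are too small for a check on single outlying samples.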

How the results depend on the processing

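The count of genes above the reference level stayed between 12613 (99th percentile of the sensory receptor genes, 5.55, as the reference) and 16302 (without replicate 2), and the median SD between 0.06 and 0.08. With that stricter reference the members above it fell from 13 to 5 for erythroid markers, from 16 to 9 for the BCL2 family, from 5 to 2 for megakaryocyte markers, from 4 to 2 for both B cell and stromal markers, and from 1 to 0 for the HOXB cluster. The other 36 of 42 lists stayed within 1.5 times their count. Leaving out 1 array at a time gave 3 to 6 megakaryocyte genes and 2 to 5 B cell genes above the reference level, the lowest counts being those without replicate 3; no other list moved by over 1.5 times. Taking the mean of all rows of a gene, repeating quantile normalization, centring each array and counting identical rows singly moved none of these counts by over 1.5 times. The order of the arrays was examined under 2 scalings chosen after seeing the data: replicate 3 was highest for 0 of 44 G2/M genes and 0 of 13 erythroid markers under both, and for 22 and 20 of 29 late neutrophil genes after quantile normalization and centring. Ranking protein-coding genes only, also chosen after seeing the data, put the median percentile of primary granule genes at 97.7 and of monocyte and macrophage genes at 54.5. No paired analysis was possible because only 1 group was described and no result comes from a test. Genes within the spread of the background probes, which reached 5.05, cannot be told from absent ones, and levels of different genes share no common unit.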

Other observations

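Of all 4665 pseudogenes with a row, 3019 (64.7%) were above the reference level, beside 10507 of 19043 protein-coding genes (55.2%).

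Further interferon-inducible genes were above the reference level: Ifih1 and Ddx58, sensors of viral RNA, averaged 9.05 ± 0.09 and 7.70 ± 0.12, and the guanylate-binding protein gene Gbp3 averaged 8.08 ± 0.11. Ifitm3, which blocks entry of viruses, varied more (6.88 ± 0.49). Glycolytic isoforms differed in standing: the glucose transporter gene Slc2a1 averaged 10.55 ± 0.19 and Slc2a3 6.27 ± 0.06, and the hexokinase genes Hk3, Hk2 and Hk1 averaged 12.81 ± 0.09, 9.24 ± 0.07 and 8.85 ± 0.07.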
